A study of Xenopus tropicalis with 26 samples.

Results

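The BMP synexpression group described here is named for joint expression with Bmp4 in the Xenopus embryo, and was taken as 10 gene symbols. These are the ligand genes bmp2 and bmp4, the extracellular inhibitor gene szl and the membrane inhibitor gene bambi. The others are the inhibitory Smad genes smad6 and smad7 and the Id genes id1, id2, id3 and id4. Of the 10 symbols, 9 were matched to rows of the gene count table, and id1 was not analysed here. All 9 had enough counts to be tested, among 12883 tested genes of 28778 in the table.

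The data are polyA-selected, stranded RNA-seq of whole Xenopus tropicalis embryos, with 26 libraries in 13 groups of 2. Wildtype embryos were sampled at stages 6, 7 and 8, cleavage and blastula stages around the activation of the embryo's own genome. At stages 7 and 8 the injected groups carried a morpholino oligonucleotide against E2f1 (E2f1 MO), the MO with E2f1 mRNA, the MO with deltaDBD mRNA, Cdkn1a mRNA alone, or the MO with Cdkn1a mRNA. E2f1 is a transcription factor of cell cycle genes, deltaDBD is by its name a form of it without the DNA-binding domain, and Cdkn1a is an inhibitor of cyclin-dependent kinases. The labels name neither the mode of action of the MO nor an injected control. They also leave unsaid whether a group's 2 libraries are from different clutches. The p-values thus reflect no more than how far these libraries vary, and that variation may be technical.

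BMP ligands bind serine/threonine kinase receptors, which phosphorylate Smad proteins that enter the nucleus with Smad4 and switch on target genes. Many of these targets dampen the signal: Bambi is a receptor decoy without a kinase, Smad6 and Smad7 block the receptors or the Smads, and sizzled, the product of szl, inhibits the proteases that free BMP from chordin. Id proteins bind the partners of basic helix-loop-helix transcription factors and keep them off DNA. In the frog gastrula the pathway patterns the embryo from ventral to dorsal.

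The libraries held 14071614 to 19032710 counts. Group means of e2f1 lay between 387 and 530.3 CPM (counts scaled to library size) without an E2f1 construct and between 2051 and 3012 CPM with one. Those of cdkn1a were 1.26 to 5.37 CPM without and 239 to 297 CPM with its mRNA. The e2f1 level is thus a check of the mRNA that was injected, says nothing of the knockdown, and does not by itself tell E2f1 from deltaDBD mRNA. All 10 stored egg transcripts looked at were found. Their summed level ran from 1309 to 1697 CPM, while 10 genes of differentiated tissues summed to at most 0.597 CPM. The 2 libraries of stage 8 E2f1 MO differed far more from each other than those of any other group, with a chi-square per degree of freedom of 12.36 over genes against 1.81 to 2.26. Results that rest on this group are therefore given without each of its libraries where they change. Leaving out 1 of its libraries often raised the calls over all tested genes as well. A call gained in this way does not set a gene apart. In whole embryos fewer cells that express a gene and less RNA per cell cannot be told apart, nor can a change in amount and a change in capture by polyA selection.

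Per kilobase of gene length, id2 and bambi were by far the most abundant of the 9 genes in stage 6 wildtype embryos, at 262 ± 5.3 and 165 ± 6.8 CPM per kb (mean ± SD, n = 2, as for all means here). smad6 followed at 14.1 ± 0.17, bmp2 at 11.3 ± 0.23, id3 at 6.12 ± 0.92 and smad7 at 1.23 ± 0.21 CPM per kb. id4 (0.0890 ± 0.0051 CPM per kb), bmp4 (0.0781 ± 0.0045) and szl (no count) were near or at the limit of detection. At stage 8 id2 and bambi still led with 173 ± 0.79 and 87.2 ± 2.2 CPM per kb, but id3 had moved to the third place with 29.4 ± 1.3 and bmp4 stood at 3.16 ± 0.56 CPM per kb.

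**Figure D1:**
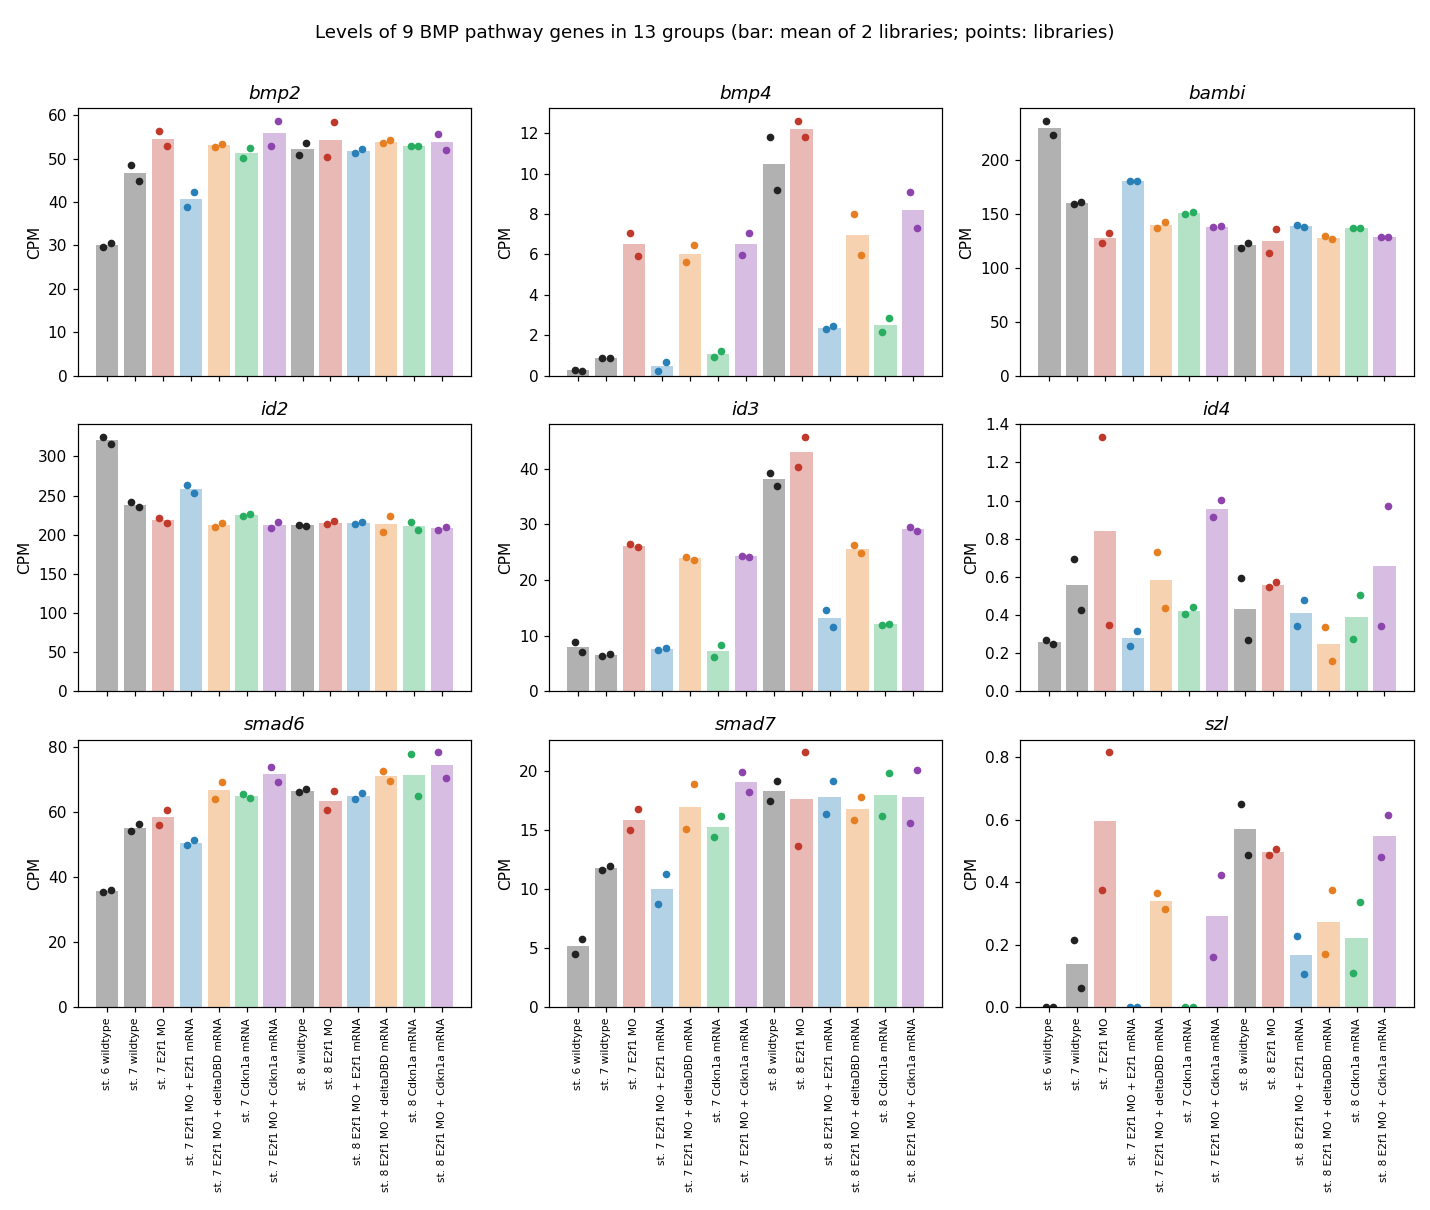
CPM (linear axis from 0) of the 9 genes in the 13 groups; bars are means of 2 libraries, points are the libraries, and colours stand for the treatment. bmp4 and id3 are low in stage 6 and stage 7 wildtype and in the E2f1 mRNA and Cdkn1a mRNA groups, and high in stage 8 wildtype and in the other MO groups, while bambi and id2 are highest at stage 6.

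The first comparison follows the genes through normal development. From stage 6 to stage 7 of wildtype embryos, bmp2, bmp4, smad6 and smad7 rose, bambi and id2 fell, and id3, id4 and szl did not pass the test. From stage 7 to stage 8, bmp4 and id3 rose steeply, smad6, smad7 and szl rose less or from fewer counts, and bambi and id2 fell again. All adjusted p-values come from the quasi-likelihood test of edgeR, adjusted by Benjamini-Hochberg over all tested genes, with a threshold of 0.05.

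bmp4 (chromosome 8, 94976275 to 94982466 of the file's XenTr10 build, minus strand), the main ventral BMP ligand gene, was at 0.270 and 0.249 CPM in the 2 stage 6 libraries, then 0.856 and 0.849 CPM at stage 7, then 11.8 and 9.17 CPM at stage 8. The 3 stages did not overlap, although the stage 6 values rest on 4 counts in each library. The rise from stage 6 to 7 was 1.69 ± 0.56 on the log2 scale (± SE, adjusted p = 0.0106). It did not hold without stage 6 wildtype replicate 2 (adjusted p = 0.0637). The rise from stage 7 to 8 was 3.61 ± 0.25 (adjusted p = 2.21e-13).

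bmp2 (chromosome 5, 25392894 to 25404642, plus strand), a ligand gene of the same subfamily whose RNA is stored in the frog egg, was at 29.7 and 30.5 CPM at stage 6, then 48.5 and 44.8 CPM at stage 7, then 50.8 and 53.5 CPM at stage 8. The first step was a rise of 0.63 ± 0.08 on the log2 scale (adjusted p = 1.31e-08). The second, 0.16 ± 0.07, did not pass (adjusted p = 0.0740), and passed with scaling to library totals (adjusted p = 0.0171) or without either stage 8 E2f1 MO library (adjusted p = 0.0376 and 0.0378).

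szl (chromosome 3, 71700005 to 71702739, plus strand) had no count in either stage 6 library, 4 and 1 counts at stage 7 and 12 and 9 counts at stage 8. The count filter asks for enough counts in only a few libraries, and szl met it only where it was highest. Its difference from a group without a count was thus close to fixed in advance. The p-values of szl, and its part in counts of the set here and below, are therefore description. szl was at least 5.86-fold higher at stage 8 than at stage 6 (adjusted p = 0.000388), against a floor of 3 counts over the group. Its rise from stage 7 to 8, 1.95 ± 0.76 on the log2 scale (adjusted p = 0.0432), was lost in 10 of 32 alternatives, among them without any one of the 4 libraries compared (adjusted p from 0.0590 to 0.258), without a count filter (adjusted p = 0.10) and in DESeq2 (adjusted p = 0.111).

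bambi (chromosome 6, 24146699 to 24154309, minus strand) was at 236 and 223 CPM at stage 6, 159 and 160.4 CPM at stage 7, then 119 and 123 CPM at stage 8. These 3 groups were fully separate, and the log2 changes were −0.52 ± 0.05 (adjusted p = 2.45e-10) and −0.40 ± 0.05 (adjusted p = 3.71e-07). smad6 (chromosome 3, 117263198 to 117295678, plus strand) went the other way, with 35.3 and 35.9, then 54.2 and 56.2, then 66.1 and 66.9 CPM. Its log2 changes were 0.63 ± 0.08 (adjusted p = 1.64e-08) and 0.27 ± 0.07 (adjusted p = 0.00307).

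smad7 (chromosome 1, 205571498 to 205596874, minus strand) was at 4.53 and 5.79, at 11.6 and 12, and at 17.5 and 19.2 CPM at the 3 stages. It rose by 1.19 ± 0.23 on the log2 scale from stage 6 to 7 (adjusted p = 0.000155). The rise of 0.64 ± 0.18 to stage 8 (adjusted p = 0.00916) was lost without stage 7 wildtype replicate 1 (adjusted p = 0.0736) or stage 8 wildtype replicate 2 (adjusted p = 0.0798).

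Among the Id genes, id3 (chromosome 2, 78344898 to 78346964, minus strand) was at 8.78 and 7.1 CPM at stage 6, then 6.37 and 6.67 CPM at stage 7, then 39.3 and 36.9 CPM at stage 8. Both stage 7 libraries lay below both stage 6 libraries, but the change of −0.28 ± 0.15 on the log2 scale did not pass (adjusted p = 0.119), and passed only without stage 6 wildtype replicate 2 (−0.43, adjusted p = 0.0483). The rise to stage 8 was 2.55 ± 0.12 (adjusted p = 4.13e-18), so that id3, unlike bmp4, started from a level that was measured well before its rise.

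id2 (chromosome 5, 137438441 to 137442746, plus strand) fell from 325 and 316 CPM at stage 6 to 242 and 235 CPM at stage 7 and to 213 and 212 CPM at stage 8. The log2 changes were −0.43 ± 0.04 (adjusted p = 1.56e-10) and −0.17 ± 0.04 (adjusted p = 0.00219). id4 (chromosome 6, 93983992 to 93989181, plus strand) had between 3 and 25 counts in each of the 26 libraries. Its wildtype values, from 0.249 to 0.695 CPM, overlapped between stages 7 and 8, and no wildtype step passed.

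In all, 6 of the 9 genes changed from stage 6 to 7, 4 up and 2 down, beside 56.3% of all tested genes. From stage 7 to 8 it was 7, 5 up and 2 down, beside 36.7%. Over the whole span from stage 6 to 8 it was 8, 6 up and 2 down, beside 69%, and id4 was the exception. The median log2 change of the 9 genes was 0.63, 0.27 and 0.90 in the 3 comparisons, against 0.01, 0.02 and 0.06 over all tested genes. Holding szl at its bound left these medians as they were. Scaling to library totals instead of trimmed means moved the median of all genes by 0.17 from stage 6 to 7 and by 0.23 from stage 6 to 8. With that scaling the fall from stage 6 to 8 was −0.69 for bambi and −0.37 for id2, and both were still called.

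Of 42 tested genes from a list of other BMP pathway genes, 31 changed from stage 7 to 8 in wildtype, 23 up and 8 down. This stood beside 36.7% of all tested genes. Of its 13 tested ventral and ectodermal target genes, 12 rose. The count filter asks for enough counts in only a few libraries. A target, ligand or antagonist gene that was silent or nearly so in a group was thus tested through groups where it was high. Its difference from that group was close to fixed in advance. The counts of targets here and below are therefore description. So are the p-values of such genes and their part in counts of the 42 genes. ventx2.2 and ventx2.1, homeobox genes that Bmp4 activates in ventral cells, went from 1.67 ± 0.39 to 33.5 ± 2.9 CPM and from 0.537 ± 0.073 to 16.2 ± 0.29 CPM. tfap2a, an epidermal transcription factor gene, went from no count to 4.36 ± 0.19 CPM, at least 51.2-fold higher. admp, a BMP-like ligand gene of the dorsal organizer, rose from 0.457 ± 0.041 to 17.8 ± 0.29 CPM. From stage 6 to 7, 22 of the 42 changed, 14 up and 8 down. With 56.3% of all tested genes called in that step, this count does not set the list apart. Among the 22, bmpr1a, a type I BMP receptor gene, rose from 64.7 ± 5.0 to 152 ± 2.0 CPM. ski, a nuclear repressor of Smad activity, rose from 50.8 ± 4.1 to 93.1 ± 1.5 CPM and rgma, a BMP co-receptor gene, from 38.3 ± 0.052 to 67.6 ± 1.6 CPM. dand5, which encodes a secreted antagonist of the Cerberus family, fell from 507 ± 4.0 to 369.8 ± 8.5 CPM. The median log2 change of the 42 genes was 0.28 from stage 7 to 8 and 0.20 from stage 6 to 7. The latter was 0 with 13 genes of 3 or fewer counts at their bound.

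The comparison of MO and wildtype embryos at stage 7 asks what the MO against E2f1 does before the wildtype rise. bmp4 and id3, the genes with the steepest wildtype rise from stage 7 to 8, were already high in stage 7 MO embryos. bmp2 was slightly higher, bambi was lower, and id2 was lower by a margin that depended on the processing.

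bmp4 was at 7.05 and 5.94 CPM in the stage 7 MO libraries against 0.856 and 0.849 CPM in wildtype, a log2 difference of 2.92 ± 0.27 (adjusted p = 4.63e-10). id3 was at 26.4 and 25.9 CPM against 6.37 and 6.67 CPM, a difference of 2.01 ± 0.12 (adjusted p = 1.76e-14). For both genes the groups were far apart, and the MO values at stage 7 lay below every stage 8 wildtype value. bambi was at 123 and 132 CPM against 159 and 160.4 CPM (−0.33 ± 0.05, adjusted p = 2.23e-05).

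bmp2 was at 56.4 and 52.8 CPM against 48.5 and 44.8 CPM (0.23 ± 0.07, adjusted p = 0.0156). The call was lost without stage 7 E2f1 MO replicate 1 (adjusted p = 0.155) or stage 7 wildtype replicate 2 (adjusted p = 0.172). id2, at 222 and 215 CPM against 242 and 235 CPM (−0.13 ± 0.04, adjusted p = 0.0264), lost its call without any one of the 4 libraries (adjusted p from 0.0527 to 0.215), in DESeq2 (adjusted p = 0.0514), with library totals (adjusted p = 0.140) and without a count filter (adjusted p = 0.0571).

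The other 4 genes did not pass in this comparison. smad7, at 15 and 16.8 CPM against 11.6 and 12 CPM, did not overlap with wildtype (0.43 ± 0.19, adjusted p = 0.104), and it passed in 5 of 32 alternatives: without either stage 8 E2f1 MO library (adjusted p = 0.00731 and 0.00735), without a count filter (0.00624), with only the libraries of the stages compared (0.00331) and with a replicate block (0.0140). szl had 7 and 14 counts against 4 and 1 (adjusted p = 0.0522). It passed without either stage 8 E2f1 MO library (adjusted p = 0.0473 and 0.0467), when replicate 1 of the stage 7 MO was left out (adjusted p = 0.0356) and with library totals (adjusted p = 0.0468). smad6, at 56.1 and 60.7 CPM against 54.2 and 56.2 CPM, overlapped with wildtype.

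Thus 5 of the 9 genes changed, 3 up and 2 down, beside 25.2% of all tested genes, with a median of 0.43 against 0.01 over all. Of the 42 other pathway genes 24 changed, 21 up and 3 down, and 11 of the 13 target genes rose. ventx2.2 was at 21.2 ± 1.6 CPM in MO embryos, ventx2.1 at 9.53 ± 0.79 CPM and admp at 7.96 ± 0.30 CPM, each between its stage 7 and stage 8 wildtype levels. bmp1, which encodes a protease that cleaves the BMP inhibitor chordin, went the other way, from 86.5 ± 2.4 to 34.9 ± 2.3 CPM (−1.31 ± 0.06, adjusted p = 1.8e-17). The summed level of the stored egg transcripts was 1309 to 1342 CPM in MO and 1568 to 1584 CPM in wildtype libraries at stage 7. Its part in these results was not tested.

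E2f1 mRNA and deltaDBD mRNA were each added to the MO, which asks whether E2f1 and its DNA-binding domain restore the wildtype values. The e2f1 level was higher with E2f1 than with deltaDBD mRNA, at 3012 ± 36 against 2112 ± 45 CPM at stage 7. At stage 8 it was 2729 ± 19 against 2051 ± 43 CPM. The part of this unequal level in the differences between the 2 mRNAs was not tested. With E2f1 mRNA at stage 7, id3 returned to near its stage 7 wildtype level, bmp4 fell to below its own without a call against wildtype, and bambi and id2 rose. With deltaDBD mRNA none of the 9 genes passed the test against the MO alone.

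bmp4 was at 0.239 and 0.697 CPM with E2f1 mRNA (4 and 11 counts) and at 5.61 and 6.44 CPM with deltaDBD mRNA, a log2 difference of −3.69 ± 0.33 (adjusted p = 5.66e-11). id3 was at 7.40 and 7.73 CPM and at 24.2 and 23.6 CPM (−1.66 ± 0.13, adjusted p = 1.7e-12). In both genes the deltaDBD libraries lay close to the MO libraries. The E2f1 libraries lay close to wildtype for id3. For bmp4 both lay below the wildtype values of 0.856 and 0.849 CPM, on few counts.

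szl had no count in either E2f1 mRNA library and 6 and 5 counts with deltaDBD mRNA, a drop of at least 3.68-fold between these groups, lower in the E2f1 mRNA group (adjusted p = 0.00655). Against the MO alone it was at least 6.35-fold lower (adjusted p = 0.000582). Both differences are description, as szl was tested through groups where it was high. bambi was at 180.0 CPM in both E2f1 mRNA libraries and at 137 and 142 CPM with deltaDBD mRNA (0.37 ± 0.05, adjusted p = 8.93e-07), and id2 at 263 and 253 against 209 and 216 CPM (0.28 ± 0.04, adjusted p = 1.7e-06).

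bmp2 was lower with E2f1 mRNA, at 38.9 and 42.3 CPM against 52.7 and 53.4 CPM with deltaDBD mRNA (−0.39 ± 0.07, adjusted p = 4.59e-05). smad6 was lower too, at 49.7 and 51.3 against 64.0 and 69.3 CPM (−0.40 ± 0.07, adjusted p = 2.87e-05). For smad7, at 8.72 and 11.3 against 15.1 and 18.9 CPM (−0.77 ± 0.19, adjusted p = 0.00263), the call was lost without stage 7 E2f1 MO + E2f1 mRNA replicate 1 (adjusted p = 0.0527).

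In numbers, 8 of the 9 genes differed between E2f1 and deltaDBD mRNA at stage 7, 2 higher and 6 lower with E2f1 mRNA, beside 46.6% of all tested genes. All 9 differed between E2f1 mRNA and the MO alone, 2 higher and 7 lower, beside 45.4%. For 3 of the 9 that count rested on single libraries. id4, with 25 and 6 counts in the MO libraries, lost its call without stage 7 E2f1 MO replicate 1 (adjusted p = 0.804) or either E2f1 mRNA library (adjusted p = 0.181 and 0.0968), and in DESeq2 (adjusted p = 0.0800). smad6 and smad7 lost theirs without stage 7 E2f1 MO replicate 2 (adjusted p = 0.186 and 0.0637) or E2f1 MO + E2f1 mRNA replicate 1 (adjusted p = 0.114 and 0.107).

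Between deltaDBD mRNA and the MO alone no gene of the 9 was called in edgeR or in DESeq2, 2 had an unadjusted p under 0.05, and 0.031% of all tested genes were called. Against stage 7 wildtype, E2f1 mRNA with the MO left 1 call beside 13% of all tested genes. This was bambi, higher by 0.17 ± 0.05 (adjusted p = 0.0283), a call lost without any one of the 4 libraries compared (adjusted p from 0.130 to 0.155) and with library totals (adjusted p = 0.197). Without stage 8 E2f1 MO replicate 1 or 2, bmp2 (adjusted p = 0.0196 and 0.0200) and id2 (adjusted p = 0.0122 in both) were called as well. Both were also called with the stages compared alone (adjusted p = 0.0205 and 0.00688), and bmp2 with library totals (adjusted p = 0.0257).

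Of the 42 other pathway genes, 29 differed between E2f1 and deltaDBD mRNA at stage 7, beside 46.6% of all tested genes. With E2f1 mRNA 7 were higher and 22 lower, with 11 of 13 target genes lower. ventx2.2 was at 0.399 ± 0.027 CPM with E2f1 mRNA and 18.3 ± 0.72 CPM with deltaDBD mRNA, ventx2.1 at 0.216 ± 0.053 and 8.81 ± 1.4 CPM, and admp at 0.274 ± 0.12 and 8.65 ± 0.019 CPM. bmp1 was at 67.8 ± 3.1 CPM with E2f1 mRNA and 39.7 ± 2.3 CPM with deltaDBD mRNA. The return to wildtype was not complete in this list. Between E2f1 mRNA with the MO and stage 7 wildtype, 9 of the 42 differed, 3 higher and 6 lower, beside 13% of all tested genes. bmp1 stayed below its wildtype level of 86.5 ± 2.4 CPM (−0.35 ± 0.06, adjusted p = 0.000106). ventx2.2 lay below its wildtype level of 1.67 ± 0.39 CPM.

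**Figure D2:**
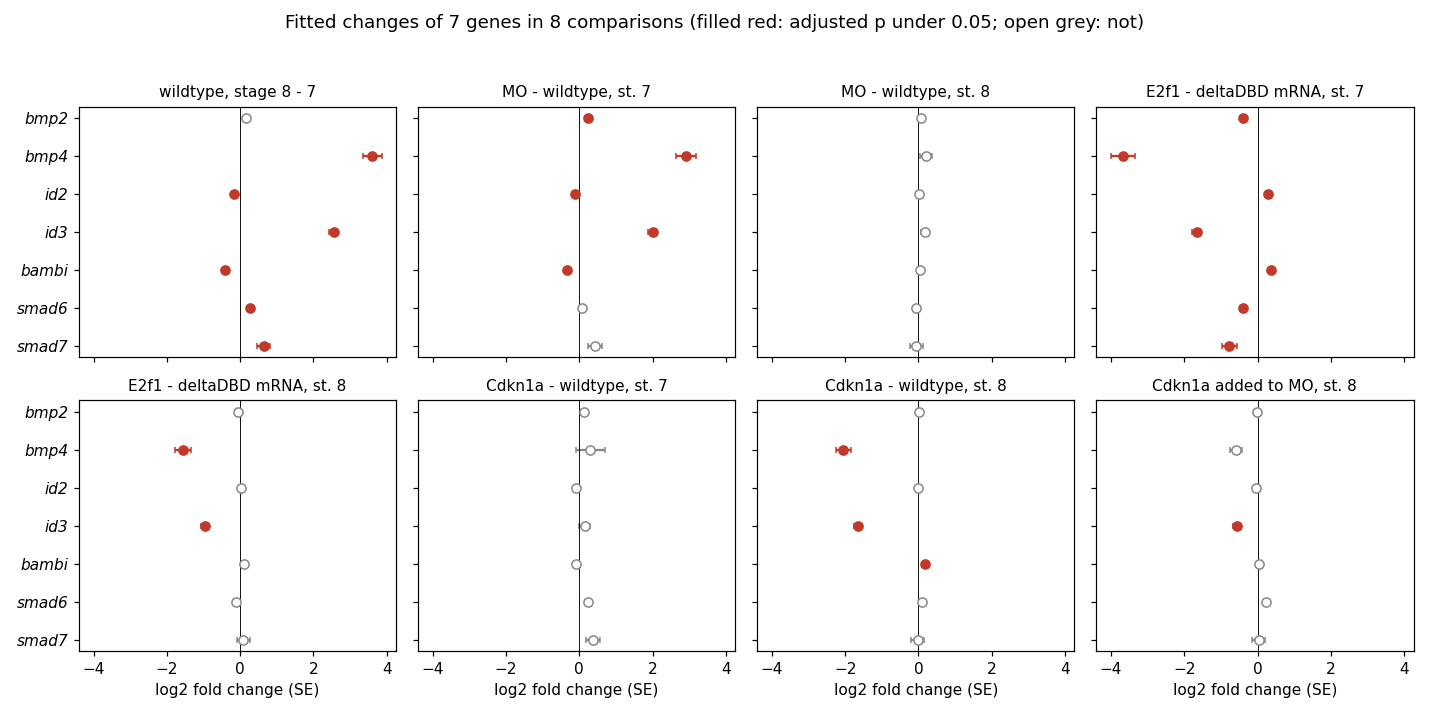
Fitted log2 fold changes (x axis, bars are ± SE) of 7 genes in 8 comparisons, filled where the adjusted p was under 0.05. id4 and szl are not shown. bmp4 and id3 lie far from 0 in wildtype from stage 7 to 8 and in the stage 7 MO, E2f1 mRNA and stage 8 Cdkn1a mRNA panels. No gene is filled for the MO at stage 8 or for Cdkn1a mRNA at stage 7.

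At stage 8 the MO and wildtype groups were close. None of the 9 genes was called between them in edgeR or DESeq2 and none had an unadjusted p under 0.05, beside 4.32% of all tested genes called. bmp4 was at 12.6 and 11.8 CPM in MO and 11.8 and 9.17 CPM in wildtype libraries (0.22 ± 0.16, adjusted p = 0.513). id3 was at 40.3 and 45.8 against 39.3 and 36.9 CPM (0.18 ± 0.09, adjusted p = 0.320).

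This comparison rests on the group whose libraries differ. Without stage 8 E2f1 MO replicate 1 the log2 difference was 0.18 for bambi and 0.28 for id3. In that fit far more of all tested genes were called, so a call there does not set a gene apart. Without replicate 2 the log2 difference was −0.09 for bambi and 0.09 for id3. bambi itself was at 113 CPM in replicate 1 and at 136 CPM in replicate 2, and smad7 at 13.6 and 21.6 CPM, the widest pairs of these genes among the 13 groups.

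Of the 42 other pathway genes 4 were called in the MO at stage 8, 1 up and 3 down, beside 4.32% of all tested genes. Without stage 8 E2f1 MO replicate 1 far more of all tested genes were called, so counts of calls are not compared between these fits. Leaving out each library of this group was a check chosen after the data were seen, as were the others of this kind on these genes. bmp1 had the largest of the 4 differences and fell from 79.1 ± 2.9 CPM in wildtype to 37.9 ± 2.1 CPM in the MO (−1.06 ± 0.06, adjusted p = 1.59e-14). Its log2 difference was −0.99 and −1.11 without replicate 1 and 2. admp (−0.41) lost its call without either library (adjusted p = 0.125 and 0.110), and hey1, a Notch target gene (0.29), without replicate 2 (adjusted p = 0.173).

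The effect of the MO changed between the stages for 3 genes, beside 16.1% of all tested genes. The MO effect was smaller at stage 8 for bmp4 (a difference of −2.7 ± 0.33 log2 units, adjusted p = 2.93e-07) and for id3 (−1.83 ± 0.16, adjusted p = 1.16e-10). For bambi it moved up by 0.37 ± 0.08 (adjusted p = 0.000856), from −0.33 at stage 7 to 0.04 at stage 8. In size the MO effect on bambi was thus smaller at stage 8 as well. The move was 0.50 without stage 8 E2f1 MO replicate 1 and 0.23 when replicate 2 was left out. Without stage 8 E2f1 MO replicate 2, bmp2 (−0.28, adjusted p = 0.0392) and smad7 (−0.85, adjusted p = 0.00117, and 0.0456 without a count filter) were called too, and without replicate 1 id2 (0.17, adjusted p = 0.0183).

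With E2f1 mRNA at stage 8, bmp4 and id3 stayed below wildtype, bambi was higher, and the remaining genes of the set did not pass the test. bmp4 was at 2.29 and 2.44 CPM against 11.8 and 9.17 CPM in wildtype (−2.15 ± 0.21, adjusted p = 1.45e-09) and id3 at 14.7 and 11.5 against 39.3 and 36.9 CPM (−1.54 ± 0.11, adjusted p = 4.92e-13). bambi was higher, at 139.8 and 137 against 119 and 123 CPM (0.20 ± 0.05, adjusted p = 0.0215), but lost its call without any one of the 4 libraries (adjusted p from 0.0722 to 0.199), with library totals (adjusted p = 0.0816) and with the stages compared alone (adjusted p = 0.154). These 3 calls stood beside 5.75% of all tested genes. Of the 42 other pathway genes 18 differed from wildtype, 2 higher and 16 lower, and 10 of the 13 target genes were lower. admp was at 2.12 ± 0.23 CPM against 17.8 ± 0.29 CPM in wildtype, and ventx2.2 at 7.45 ± 0.87 against 33.5 ± 2.9 CPM.

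Against the MO alone, E2f1 mRNA at stage 8 lowered bmp4 (−2.36 ± 0.20, adjusted p = 1.21e-10) and id3 (−1.72 ± 0.11, adjusted p = 2.98e-14). These were the 2 calls of the set, beside 6.06% of all tested genes, and both held without either MO library. bambi was called as well without replicate 2 of the MO (0.29, adjusted p = 2.34e-05).

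deltaDBD mRNA, without a call at stage 7, was not without difference at stage 8. bmp4 was at 8.01 and 5.95 CPM against 12.6 and 11.8 CPM in the MO alone (−0.81 ± 0.17, adjusted p = 0.0108), and id3 at 26.2 and 24.9 against 40.3 and 45.8 CPM (−0.75 ± 0.10, adjusted p = 2.18e-05). They were the 2 calls of the set, beside 1.03% of all tested genes. The call of bmp4 was lost when its deltaDBD mRNA replicate 2 was left out (adjusted p = 0.304) or only the libraries of the stages compared were fitted (adjusted p = 0.0535), while that of id3 held without any one library.

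E2f1 mRNA gave lower values than deltaDBD mRNA at stage 8 for the same pair, bmp4 (−1.56 ± 0.22, adjusted p = 9.32e-06) and id3 (−0.97 ± 0.11, adjusted p = 1.71e-07), beside 1.6% of all tested genes called. For both genes the order at stage 8 was therefore the MO, deltaDBD mRNA and E2f1 mRNA from high to low, with no overlap between the 3 groups.

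Of the 42 genes 13 differed, 1 higher and 12 lower with E2f1 mRNA, beside 1.6% of all tested genes. Of the 13 targets 8 were lower. ventx2.2 was at 7.45 ± 0.87 CPM with E2f1 mRNA and 23 ± 1.4 CPM with deltaDBD mRNA, ventx2.1 at 3.12 ± 0.29 and 11.2 ± 0.88 CPM, and admp at 2.12 ± 0.23 and 8.91 ± 0.48 CPM. foxi1, a forkhead gene of the ectoderm, was at 0.847 ± 0.23 and 4.93 ± 0.91 CPM.

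Cdkn1a mRNA was given alone and with the MO, which asks what a cyclin-dependent kinase inhibitor does to the same genes and whether the MO changes it. At stage 7 none of the 9 genes passed the test for Cdkn1a mRNA alone, with smad6 just over the threshold, and at stage 8 it held bmp4 and id3 far below wildtype. In MO embryos Cdkn1a mRNA had a much smaller effect on bmp4 and id3 at stage 8. The cdkn1a level was lower with the MO than without, at 238.8 ± 4.7 against 297.5 ± 7.8 CPM at stage 7. At stage 8 it was 238.7 ± 0.92 against 285.9 ± 3.3 CPM. The part of this unequal level in the results was not tested.

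At stage 7 bmp4 was at 0.923 and 1.2 CPM with Cdkn1a mRNA and id3 at 6.12 and 8.37 CPM. The bmp4 values lay above the wildtype values and those of id3 on both sides of them, with log2 differences of 0.30 ± 0.40 (adjusted p = 0.731) and 0.15 ± 0.15 (adjusted p = 0.648). No gene of the set was called in edgeR or in DESeq2, 2 had an unadjusted p under 0.05, and 4.75% of all tested genes were called. smad6, at 65.5 and 64.4 against 54.2 and 56.2 CPM in wildtype (0.24 ± 0.07), had an adjusted p of 0.0519, and it passed in 9 of 32 alternatives. These were leaving out a stage 8 library of the MO (adjusted p = 0.00544 and 0.00552), of Cdkn1a mRNA (0.0338 and 0.0335) or of the MO with Cdkn1a mRNA (0.0496 and 0.0495), library totals (0.0337), no count filter (0.0294) and the stages compared alone (0.00261). smad7 (0.38) passed without either stage 8 E2f1 MO library (adjusted p = 0.0483 in both) and with the stages compared alone (adjusted p = 0.0282).

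At stage 8 bmp4 was at 2.18 and 2.86 CPM with Cdkn1a mRNA against 11.8 and 9.17 CPM in wildtype (−2.06 ± 0.20, adjusted p = 2.57e-09). id3 was at 12 and 12.1 against 39.3 and 36.9 CPM (−1.66 ± 0.11, adjusted p = 3.81e-14). Neither gene overlapped with wildtype, and both lay above their stage 7 wildtype values. bambi was at 137 CPM in both libraries against 119 and 123 CPM (0.18 ± 0.05, adjusted p = 0.0388). The bambi call was lost without any one of the 4 libraries (adjusted p from 0.118 to 0.316), without most of the other libraries of the fit (adjusted p at least 0.0502), in DESeq2 (adjusted p = 0.0906), with library totals (adjusted p = 0.0912) and with the stages compared alone (adjusted p = 0.212).

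Those 3 calls stood beside 6.22% of all tested genes. szl had 2 and 6 counts against 12 and 9 in wildtype, which do not overlap but did not pass (adjusted p = 0.312). The remaining 5 genes of the set differed from wildtype by at most 0.16 log2 units in either direction. Of the 42 other pathway genes 16 changed, 1 up and 15 down, and 10 of the 13 target genes fell. ventx2.2 was at 5.50 ± 0.090 CPM, ventx2.1 at 1.80 ± 0.23 CPM, admp at 1.68 ± 0.16 CPM and tfap2a at 0.249 ± 0.044 CPM. The 4 transducers and 8 intracellular regulators of the list had no call, and of the 6 receptors 1 was called, as higher.

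**Figure D3:**
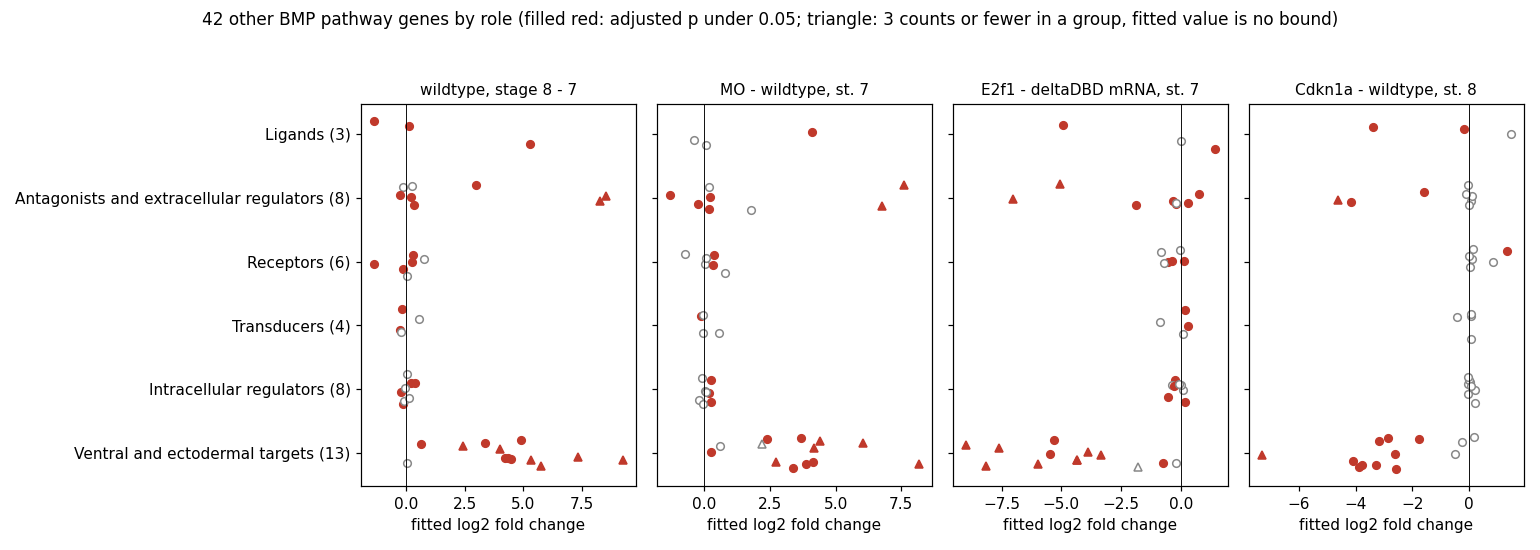
Fitted log2 fold changes (x axis) of 42 other BMP pathway genes in 4 comparisons, grouped by role with the number tested; filled red marks an adjusted p under 0.05 and triangles mark genes with 3 counts or fewer in a group, whose fitted value is no bound. The target genes lie on the right in wildtype from stage 7 to 8 and in the MO at stage 7, and on the left with E2f1 mRNA at stage 7 and Cdkn1a mRNA at stage 8. Receptors and transducers lie closer to 0 on this wide axis, but some were called. Between E2f1 and deltaDBD mRNA at stage 7 these were 3 of 6 receptors and 2 of 4 transducers.

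The Cdkn1a effect changed between stages for 3 genes, beside 6.09% of all tested genes. It was lower at stage 8 for bmp4 (−2.36 ± 0.46, adjusted p = 0.00118) and for id3 (−1.81 ± 0.19, adjusted p = 4.58e-08). For bambi it was higher by 0.26 ± 0.08 (adjusted p = 0.0319), a call lost in 20 of 32 alternatives. Among these were leaving out any one of its 4 stage 7 libraries (adjusted p from 0.0892 to 0.134) or 4 stage 8 libraries (adjusted p from 0.0814 to 0.138), library totals (adjusted p = 0.115) and DESeq2 (adjusted p = 0.0537).

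Added to the MO at stage 7, Cdkn1a mRNA left bmp4 at 5.96 and 7.07 CPM and id3 at 24.4 and 24.2 CPM, against 7.05 and 5.94 CPM and 26.4 and 25.9 CPM with the MO alone. The log2 differences were 0.00 ± 0.18 and −0.11 ± 0.10. smad6 was the 1 call of the set, beside 1.4% of all tested genes, at 73.8 and 69.3 against 56.1 and 60.7 CPM (0.29 ± 0.07, adjusted p = 0.0234). That call was lost without any one of the 4 libraries (adjusted p from 0.0511 to 0.470). bmp1, low in the MO, was higher with Cdkn1a mRNA added, at 59.0 ± 0.62 against 34.9 ± 2.3 CPM (0.76 ± 0.06, adjusted p = 2.98e-10).

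Added to the MO at stage 8, Cdkn1a mRNA lowered id3 from 40.3 and 45.8 to 29.5 and 28.8 CPM (−0.56 ± 0.10, adjusted p = 0.000444), the 1 call of the set beside 1.82% of all tested genes. bmp4 was at 9.09 and 7.33 CPM (−0.58 ± 0.17) and did not pass (adjusted p = 0.0741), but passed without stage 8 E2f1 MO replicate 1 (−0.55, adjusted p = 0.0463) or replicate 2 (−0.63, adjusted p = 0.0443) and without a count filter (adjusted p = 0.0124). Without replicate 2, bambi (0.18, adjusted p = 0.0276) and smad6 (0.29, adjusted p = 0.0142) were called as well.

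The interaction term compares the Cdkn1a effect with and without the MO. At stage 7 none of the 9 genes was called in edgeR or DESeq2, 1 had an unadjusted p under 0.05, and 1.05% of all tested genes were called. bambi passed without stage 8 E2f1 MO replicate 1 or 2 (0.19, adjusted p = 0.0371 and 0.0377) and with the stages compared alone (adjusted p = 0.0320). At stage 8 the interaction was 1.47 ± 0.27 log2 units for bmp4 (adjusted p = 0.000437) and 1.1 ± 0.15 for id3 (adjusted p = 2.07e-06), the 2 calls of the set beside 6.33% of all tested genes. Both held without either stage 8 E2f1 MO library. bambi was called without replicate 1 (−0.27, adjusted p = 0.000988) and not without replicate 2 (0.00, adjusted p = 0.988).

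Of the 42 other pathway genes, 14 had an interaction at stage 8, beside 6.33% of all tested genes. The smallest p-values were those of admp (3.12 ± 0.22), ventx2.2 (2.06 ± 0.16), ventx2.1 (2.51 ± 0.24) and tfap2a (4.101 ± 0.54). tfap2a was nearly silent with Cdkn1a mRNA alone and was tested through groups where it was high, so its interaction is description. By direction the interaction was 13 positive and 1 negative. Without stage 8 E2f1 MO replicate 1 the interaction was 3.06 for admp, 1.99 for ventx2.2, 2.44 for ventx2.1 and 4.24 for tfap2a. Without replicate 2 it was 3.18, 2.12, 2.58 and 3.97 in the same order. tfap2a stood at 3.95 ± 1.3 CPM where both Cdkn1a mRNA and the MO were present, against 0.249 ± 0.044 CPM with Cdkn1a mRNA alone and 4.0 ± 0.54 CPM with the MO alone.

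Over the 13 groups, bmp4 ran from 0.260 ± 0.015 CPM in stage 6 wildtype to 12.2 ± 0.57 CPM in the stage 8 MO. The highest pair, the stage 8 MO and wildtype groups, overlapped. Below them came stage 8 MO with Cdkn1a mRNA (8.21 ± 1.2 CPM) and with deltaDBD mRNA (6.98 ± 1.5 CPM), then the stage 7 MO groups with Cdkn1a mRNA (6.52 ± 0.78), alone (6.5 ± 0.78) and with deltaDBD mRNA (6.03 ± 0.59 CPM), and each of these overlapped with the next. The next level, without overlap to those above, was held by stage 8 Cdkn1a mRNA (2.52 ± 0.48) and stage 8 E2f1 mRNA (2.36 ± 0.10 CPM). Stage 7 Cdkn1a mRNA (1.06 ± 0.19), stage 7 wildtype (0.853 ± 0.0045) and stage 7 E2f1 mRNA (0.468 ± 0.32 CPM) came last before stage 6.

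id3 had almost the same order, from 6.52 ± 0.22 CPM in stage 7 wildtype to 43.0 ± 3.9 CPM in the stage 8 MO. Stage 8 wildtype was second with 38.1 ± 1.7 CPM, stage 8 MO with Cdkn1a mRNA next with 29.2 ± 0.43 CPM, and the next 4 groups lay between 23.9 ± 0.40 and 26.2 ± 0.36 CPM. Stage 8 E2f1 mRNA (13.1 ± 2.2 CPM) and Cdkn1a mRNA (12 ± 0.076 CPM) overlapped with each other, and the last 4 groups, stage 6 and 3 of stage 7, lay between 6.52 and 7.94 CPM and overlapped in sequence.

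bambi and id2 shared the order of their highest groups. Both were highest in stage 6 wildtype, at 229 ± 9.5 and 321 ± 6.5 CPM, followed by stage 7 E2f1 mRNA at 180.0 ± 0.046 and 258 ± 6.8 CPM, stage 7 wildtype at 159.9 ± 0.76 and 238 ± 4.7 CPM, and stage 7 Cdkn1a mRNA at 151 ± 1.3 and 225 ± 1.4 CPM. No neighbours in this stretch overlapped. The rest lay between 209 and 218 CPM for id2, with overlap between all neighbours. For bambi they lay between 121 and 139.7 CPM, and stage 8 Cdkn1a mRNA, at 137 ± 0.22 CPM, overlapped with neither of its neighbours.

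The ligand gene bmp2 and the inhibitory Smad genes were lowest at stage 6. bmp2 ran from 30.1 ± 0.61 CPM in stage 6 wildtype over 40.6 ± 2.4 CPM in stage 7 E2f1 mRNA and 46.6 ± 2.6 CPM in stage 7 wildtype to 10 groups at 51.3 to 55.8 CPM, in which all neighbours overlapped. smad6 ran from 35.6 ± 0.43 CPM at stage 6 to a highest group mean 2.09-fold above it, and smad7 from 5.16 ± 0.89 CPM to one 3.71-fold above it. For comparison, the highest group mean of bmp4 was 47.0-fold, that of id3 6.60-fold, that of bambi 1.90-fold and that of id2 1.54-fold above the lowest. Among id4 groups all 12 pairs of neighbours overlapped, and among szl groups 10 of 12.

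**Figure D4:**
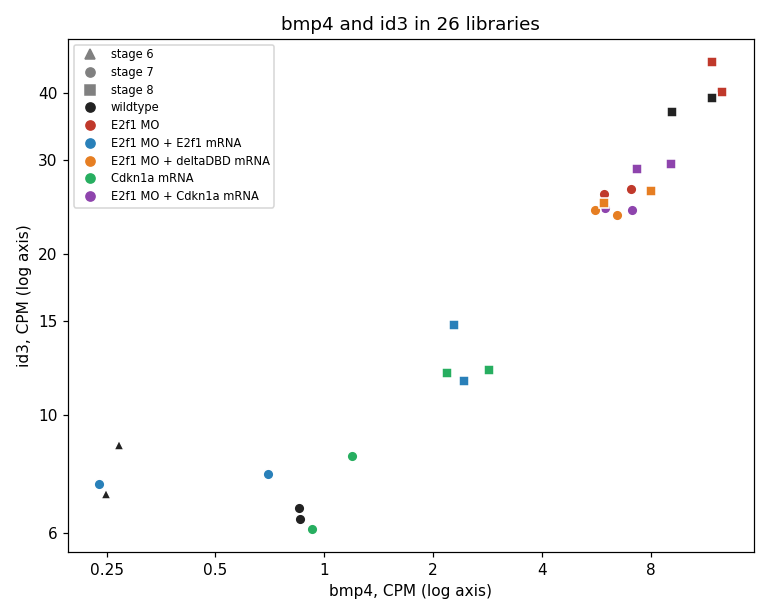
id3 against bmp4 in the 26 libraries (CPM, log axes); symbols stand for the stage and colours for the treatment. The libraries with bmp4 above 5 CPM are those of stage 8 wildtype and of the MO groups without E2f1 mRNA, and all of them have id3 above 23 CPM.

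Across the 13 group means on the scale log2(CPM + 1), bmp4 and id3 had a Pearson correlation of 0.980, bambi and id2 of 0.955, and bmp2 and id2 of −0.986. The correlation of bmp4 was 0.92 with szl, 0.753 with smad7, 0.746 with bmp2, 0.683 with smad6 and 0.496 with id4. It was −0.868 with bambi and −0.747 with id2, so the set did not share one profile in these groups. The groups share stages and injected reagents, so these values describe the profiles and were not tested. By the same measure, over 10084 candidate genes, the genes most like bmp4 were sgk1, a kinase gene (0.995), lefty, which encodes a Nodal inhibitor (0.993), and ventx2.1 (0.992). Those most like id3 were not, the notochord homeobox gene (0.992), fgf8, an FGF ligand gene (0.991), and irx1, an Iroquois homeobox gene (0.990). szl came closest to nefl (0.944), fgf20 (0.940) and lefty (0.935). The values of szl, 0.92 with bmp4 among them, rest on at most 21 counts in a group and on none in some groups.

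The profile of bambi was most like those of gcna (0.994), cdca3 (0.993) and plk1, a mitotic kinase gene (0.993), and that of id2 most like those of tmem171 (0.997), psip1 (0.996) and azin1 (0.996). Nearest to bmp2 were lin9 (0.995), ttc1 (0.994) and ddx10 (0.993), to smad6 senp7 (0.989), spdyc (0.989) and ppp2r2d (0.989), and to smad7 trmt10c (0.994), supt16h (0.994) and rab27b (0.994). plk1 fell in wildtype from 1090 to 701 and 503 CPM over the 3 stages, and lin9, a gene of the cell cycle regulating MuvB complex, rose from 94.6 to 152 and 181 CPM. For id4 the highest values were 0.722 (tmco6), 0.716 (dnajc4) and 0.710 (lhfpl4), so no gene followed its low counts closely.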

How the data were processed

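The submitters' processing notes name fastp, STAR 2.7.0e and featureCounts 2.0.1. The version of fastp is not given in the sources used here. Per the file headers, the deposited gene counts are raw, stranded fragment counts on the XenTr10 build; they were used as they stand, with gene names and 1-based coordinates of the file. Groups came from the labels.

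All 26 libraries entered one quasi-likelihood fit with a mean per group (edgeR 4.0.16 under R 4.3.3, TMM scaling, filterByExpr, robust, 13 residual degrees of freedom), and p-values were adjusted over 12883 genes in each of 21 contrasts. The fit was tested on simulated data. CPM use TMM library sizes. Floors (3 counts over a group) cover counting error only.

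Members and lists were chosen with earlier results of these data known. All members are named; of 62 listed pathway symbols, 55 had rows and 42 were tested, with up to 4 called genes of smallest p named per contrast; for likeness, the 3 genes of highest Pearson correlation with at least 2 CPM. Alternatives were DESeq2 1.42.0, other scalings, no filter, a replicate block, the stages compared alone, and each library left out.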

Additional observations from a re-analysis of the deposited data

Results flagged for a closer look

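These results stand out because an effect of an injected reagent differed between stages, or with and without the MO, by a test of the difference itself (edgeR interaction contrasts). bmp4 and id3 differed in the MO effect at stage 8 against stage 7 (−2.7 and −1.83 on the log2 scale), in the Cdkn1a effect at stage 8 against stage 7 (−2.36 and −1.81), and in the stage 8 interaction of Cdkn1a mRNA with the MO (1.47 and 1.1). For bambi these stage differences had the opposite sign, 0.37 for the MO effect and 0.26 for the Cdkn1a effect. The MO effect on bambi was −0.33 at stage 7 and 0.04 at stage 8. It was thus smaller in size at stage 8, as for bmp4 and id3, from a start of opposite sign. The Cdkn1a effect on bambi was −0.08 at stage 7 and 0.18 at stage 8. The call of the Cdkn1a difference of bambi was lost without any one of its 8 libraries (adjusted p from 0.0814 to 0.138), with library totals (adjusted p = 0.115) and in DESeq2 (adjusted p = 0.0537). In wildtype, bmp4 was at 0.853 ± 0.0045 CPM at stage 7 and at 10.5 ± 1.9 CPM at stage 8 (n = 2), so that the level against which each effect was measured also differed between the stages.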

How the results depend on the processing

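Each result was computed under up to 32 alternatives, and no called member changed direction under any of them. The calls of bmp4 and id3 held under all, except that of bmp4 from stage 6 to 7 and with deltaDBD mRNA against the MO at stage 8 (adjusted p = 0.0637 where the first was lost, and 0.304 and 0.0535 for the second). Low counts limit szl and id4, and groups of 2 libraries limit all values. Replicate numbers did not pair the libraries: over 78 pairs of groups the correlation of deviations ran from −0.125 to 0.103, with 2 pairs over 0.1. With a replicate block the calls of members were the same except for smad7 in the MO at stage 7, which passed (0.42, adjusted p = 0.0140). The causes of the shifts below were not tested.

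Counts of called members moved by over 1.5 times in these cases. With only the libraries of the stages compared they were 3 for E2f1 mRNA against wildtype at stage 7, 2 for Cdkn1a mRNA at stage 7, 1 for the interaction at stage 7 and 1 for deltaDBD mRNA against the MO at stage 8. Without a count filter they were 1 for Cdkn1a mRNA at stage 7, also 1 with library totals, and 2 for Cdkn1a mRNA added to the MO at stage 8.

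Counts over all tested genes moved as follows. With only the libraries of the stages compared, stage 7 had 33 calls for deltaDBD mRNA against the MO, 3004 for E2f1 mRNA and 1892 for Cdkn1a mRNA against wildtype, 792 for Cdkn1a mRNA added to the MO and 675 for the interaction. Stage 8 then had 205 for the MO, 402 for E2f1 mRNA and 53 for deltaDBD mRNA against the MO, 470 for E2f1 mRNA and 482 for Cdkn1a mRNA against wildtype, 126 for Cdkn1a mRNA added to the MO and 384 for the interaction. Without a count filter there were 21, 371 and 209 calls at stage 7 for deltaDBD mRNA, Cdkn1a mRNA added to the MO and the interaction. At stage 8 there were 946, 1240, 556 and 503 for the MO, E2f1 mRNA and deltaDBD mRNA against the MO, and Cdkn1a mRNA added to the MO.

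With each library left out in turn, the number of called members ran from 3 to 7 for the MO and from 0 to 3 for E2f1 mRNA against wildtype at stage 7, and from 0 to 2 for Cdkn1a mRNA at stage 7. It ran from 0 to 1 for Cdkn1a mRNA added to the MO and for the interaction at stage 7, and from 0 to 2 for the MO at stage 8. It ran from 1 to 2 for deltaDBD mRNA against the MO and from 1 to 4 for Cdkn1a mRNA added to the MO at stage 8, and from 3 to 5 for the change of the MO effect. Over all genes at stage 7 the counts ran from 1922 to 4266 for the MO, from 2 to 16 for deltaDBD mRNA against the MO, from 527 to 2859 for E2f1 mRNA and from 43 to 1729 for Cdkn1a mRNA against wildtype, from 61 to 667 for Cdkn1a mRNA added to the MO and from 57 to 573 for the interaction. At stage 8 they ran from 202 to 3015 for the MO, from 356 to 3462 for E2f1 mRNA and from 32 to 2564 for deltaDBD mRNA against the MO, and from 117 to 418 for E2f1 against deltaDBD mRNA. They ran from 394 to 1441 for E2f1 mRNA and from 408 to 1444 for Cdkn1a mRNA against wildtype, from 93 to 2343 for Cdkn1a mRNA added to the MO, and from 473 to 2733 for the interaction. Between stages, the change of the MO effect gave 1301 to 3471 calls and that of the Cdkn1a effect 359 to 1777. The highest count over all genes came without 1 of the 2 stage 8 E2f1 MO libraries in each of these cases.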

Other observations

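The partners that Id proteins bind, the E-protein genes, were all measured. tcf3 was abundant and fell in wildtype from 243 ± 4.3 CPM at stage 6 to 215 ± 4.6 CPM at stage 7 and 186 ± 1.5 CPM at stage 8 (n = 2 each; log2 changes −0.18 ± 0.05 and −0.21 ± 0.05, adjusted p = 0.00405 and 0.00176, edgeR). tcf12 rose from 48.2 ± 1.5 to 79.3 ± 2.2 and 90.6 ± 0.46 CPM, and tcf4 from 2.59 ± 0.034 to 6.21 ± 0.29 and 9.38 ± 1.3 CPM. At stage 7 tcf12 was higher in the MO (0.19 ± 0.06, adjusted p = 0.0105), and with E2f1 mRNA it was lower than with deltaDBD mRNA (−0.48 ± 0.06, adjusted p = 2.3e-08). In the latter comparison tcf4 was lower as well (−0.70 ± 0.18, adjusted p = 0.0019), and tcf3 was higher (0.18 ± 0.05, adjusted p = 0.00492). At stage 8 none of these 3 genes was called in either comparison (edgeR, adjusted p at least 0.430).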
